A study of Homo sapiens with 33 samples.

Results

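Human chromosome 19 carries the densest collection of zinc finger genes in the genome, and their transcripts were followed here in HT29 colorectal adenocarcinoma cells exposed to herbal extracts. Members were the rows of the gene count table whose Ensembl identifier maps to a protein-coding gene of chromosome 19 with a symbol made of ZNF, a number and at most 1 further letter. The table held 246 such genes of 60675 genes in all. Of the 246, 18 had no count in any library, 48 stayed under the filter on low counts and 180 were tested, among 17432 genes tested. One further gene of the family, HKR1, carries such a symbol only in newer annotation and was not a member. Of the 180 tested members, 172 reached the filter's level in at least 1 library of every group.

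HT29 is an established epithelial line from a colon tumour. The 33 RNA-seq libraries formed 13 groups, all collected 24 h after treatment. Vehicle, labelled as 0.1% DMSO, had 3 libraries, while the series text gives another DMSO percentage, and which one applies was not settled. The other groups received 70% ethanol extracts of 4 tonic formulas at 500, 100 and 20 ug/mL, called high, medium and low here. Sagunja-tang and Samul-tang are formulas of their own, Palmul-tang joins their herbs, and Sibjeondaebo-tang is Palmul-tang with more herbs. Values for the 4 extracts are given in this order throughout. Sagunja-tang and Samul-tang had 2 libraries per dose, numbered 2 and 3, and the other extracts had 3. All groups share the same line and batch label, and no label says that libraries came from separate cultures, so p-values measure the spread between these libraries, which may be technical. Vehicle libraries carry sample codes of their own kind, distinct from those of the first pair of extracts and from those of the second pair. The labels do not explain the codes, so treatment with any extract and membership of a code set cannot be told apart in a comparison with vehicle. Every comparison with vehicle uses the same 3 vehicle libraries. Of 13 colonic epithelial markers, 12 had a median of at least 1 CPM, the count scaled to a common library size. So did 1 of 7 fibroblast markers (COL1A1, 1.21), 1 of 4 endothelial markers (PECAM1, 1.54) and 3 of 6 leukocyte markers (LYZ with 1495, CD68 with 5.60 and CD14 with 3.61). The defining markers COL1A2, COL3A1, DCN, THY1, PTPRC, CD3E, CDH5 and KDR had a median of 0.

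Zinc finger proteins of this family read DNA through tandem C2H2 fingers, each held in shape by a zinc ion. Many carry a KRAB box at their amino end, which binds TRIM28 (KAP1). TRIM28 in turn brings in the histone methyltransferase SETDB1 and HP1 proteins, which lay down repressive H3K9 methylation, above all on transposable elements. The chromosome 19 genes arose by repeated local duplication and lie in blocks of close relatives. In the coding sequences of GENCODE 29, a pattern match found a KRAB box in 208 of the 246 members, and the members carried a median of 12 fingers, with a range of 0 to 36.

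Promoters of 4 members are printed because these genes show the patterns described further on. ZNF160 was lower than vehicle with every extract and dose, ZNF91 represents the block next to the centromere, ZNF544 was higher than vehicle in most comparisons, and ZNF787 was higher at the high doses. Sequences are RefSeq promoters of GRCh38.p14, 300 bases each, written 5′ to 3′ on the gene's strand. By the gene bounds given further on, most bases lie before the gene's start for ZNF160, ZNF91 and ZNF787. For ZNF544 all of them lie after that start, inside the gene. They lie at chr19:53103373-53103672 on the minus strand for ZNF160, chr19:23395422-23395721 on the minus strand for ZNF91, chr19:58228664-58228963 on the plus strand for ZNF544 and chr19:56121246-56121545 on the minus strand for ZNF787. Capitals mark the ETS factor core CCGGAA on either strand (TTCCGG on the opposite one) and, in ZNF544 alone, 1 match to the antioxidant response element core TGACNNNGC.
ZNF160: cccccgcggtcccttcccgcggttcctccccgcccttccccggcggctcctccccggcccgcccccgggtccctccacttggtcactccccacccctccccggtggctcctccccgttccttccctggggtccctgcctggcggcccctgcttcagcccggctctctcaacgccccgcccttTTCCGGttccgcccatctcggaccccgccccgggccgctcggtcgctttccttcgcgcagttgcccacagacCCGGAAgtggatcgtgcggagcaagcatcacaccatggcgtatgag
ZNF91: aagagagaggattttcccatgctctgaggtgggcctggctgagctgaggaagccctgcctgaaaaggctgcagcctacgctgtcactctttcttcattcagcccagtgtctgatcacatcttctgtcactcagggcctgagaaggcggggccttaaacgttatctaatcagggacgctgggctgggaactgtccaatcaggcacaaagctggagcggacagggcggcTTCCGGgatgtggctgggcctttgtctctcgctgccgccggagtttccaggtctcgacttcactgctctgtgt
ZNF544: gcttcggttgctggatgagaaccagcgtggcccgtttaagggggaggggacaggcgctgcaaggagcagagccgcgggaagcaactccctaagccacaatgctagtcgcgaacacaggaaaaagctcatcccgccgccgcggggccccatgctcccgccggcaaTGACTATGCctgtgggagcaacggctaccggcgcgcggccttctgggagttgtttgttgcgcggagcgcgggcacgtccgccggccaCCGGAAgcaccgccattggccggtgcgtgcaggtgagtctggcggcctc
ZNF787: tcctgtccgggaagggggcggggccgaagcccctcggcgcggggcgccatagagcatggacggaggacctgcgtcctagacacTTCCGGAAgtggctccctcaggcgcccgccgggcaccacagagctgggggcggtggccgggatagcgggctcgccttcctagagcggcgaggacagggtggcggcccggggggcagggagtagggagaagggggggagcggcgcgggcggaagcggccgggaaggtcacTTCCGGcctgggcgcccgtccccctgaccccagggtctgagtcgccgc

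The capitals show 2 ETS cores in ZNF160, 1 in ZNF91, 1 in ZNF544 and 3 in ZNF787, where a pair on opposite strands overlaps. RefSeq promoters matched 215 of the 246 members. The ETS core, searched on both strands, stood in 121 of the 215 (56.3%), against 17.6% of 27303 promoters of the same length. Among tested members alone, it stood in 87 of 160 promoters (54.4%). Of these tested members, the block that holds ZNF91 had it in 10 of 13 (76.9%) and the block that holds ZNF160 in 15 of 24 (62.5%). The most distal block, which holds ZNF544, had it in 26 of 33 (78.8%). The YY1 core GCCATNTT stood in 14.4% of member promoters against 6.82% of all. The E-box CACGTG stood in 4.19% of member promoters and 7.44% of all, and the antioxidant response element core, part of the site read by NRF2, in 14.4% and 13.6%. The median number of CpG dinucleotides was 20 per member promoter and 14 over all promoters. These are matches of letters and say nothing of binding.

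Member transcripts were scarce. The median member had a mean of 6.06 CPM over the 33 libraries, against 13.6 for all genes tested, and 113 of the 180 were under 10 CPM while 2 exceeded 100. The 150 tested members with a KRAB box had a median of 5.52 CPM, and the 30 without one a median of 19.7 CPM. ZNF146 (OZF), which consists of fingers without a KRAB box, was the most abundant at a mean of 208 CPM, and its exons overlap ZNF565 on the other strand. ZNF587, a KRAB protein known for binding the long terminal repeats of human endogenous retroviruses, followed at 137 CPM, with reads shared among its near copies, since all of its counts in the deposited values were fractional. Divided by transcript length, the order changed: ZNF146 held 55.1 CPM per kilobase, followed by ZNF787, by ZNF587 with 19.8 and, further down, by ZNF121 with 10.7. Fractional counts, the mark of reads split between similar genes, touched 88 of the 180 members and made up most values in 54. Exons of another gene overlapped 68 of the 180 on the same strand and 55 on the opposite strand.

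Summed over the tested members, the share of each library held by the family was nearly constant. The 3 vehicle libraries held 2433 to 2521 CPM (mean 2482 ± 45.0, SD, n = 3), and the 30 extract libraries held 2329 to 2468 CPM. The high dose of Sibjeondaebo-tang was lowest, with 2337 ± 8.95 CPM (SD, n = 3; 2329 to 2347), below every vehicle library. This position was not particular to it. All libraries lay below every vehicle library in each extract group except Sagunja-tang medium, Samul-tang high and Palmul-tang low. At the low dose of Sibjeondaebo-tang, for example, they held 2377 to 2415 CPM. The high dose of Samul-tang reached 2454 ± 19.7 CPM (SD, n = 2), within the vehicle range. In these bulk libraries, fewer cells that express a gene and less RNA per cell cannot be told apart.

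**Figure D1:**
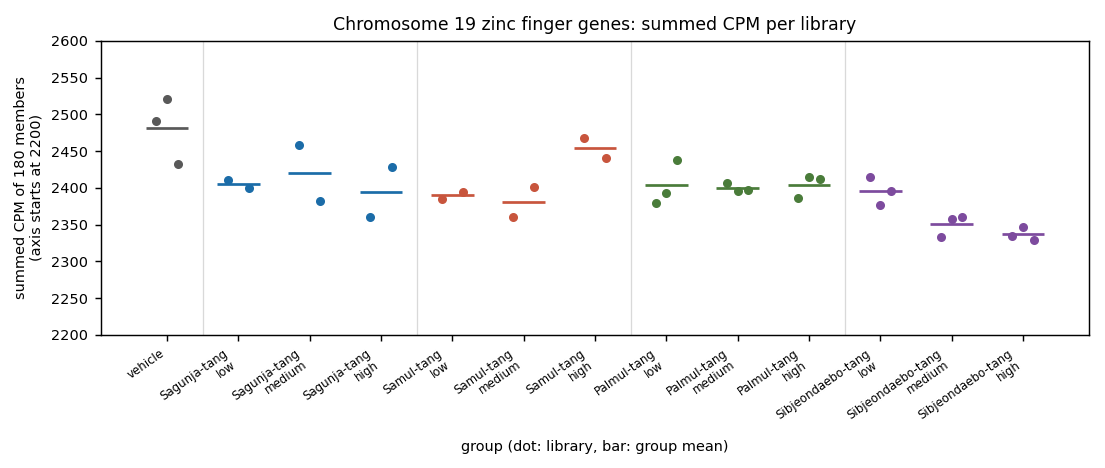
Summed CPM of the 180 tested members (vertical axis, which does not start at 0) in each library, by group; points are libraries and bars are group means. Vehicle libraries lie between 2433 and 2521, and the 3 libraries of the high dose of Sibjeondaebo-tang lie between 2329 and 2347, below all of them. All libraries of the other extract groups also lie below vehicle, except at Sagunja-tang medium, Samul-tang high and Palmul-tang low.

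At the high doses, members fell more often than they rose with each extract. With Sagunja-tang, 30 members fell and 13 rose at an adjusted p under 0.05 in edgeR's quasi-likelihood test, out of 180. Over all 17432 genes, 36.7% were called there (18.7% higher and 18% lower), so that the members' 23.9% lay under the background and their rises far under it. With Samul-tang, 16 fell and 6 rose, 12.2% of members against 27.5% of all genes (15% higher, 12.5% lower). With Palmul-tang, 31 fell and 7 rose, 21.1% of members against 32.1% of all genes (17.3% higher, 14.8% lower). With Sibjeondaebo-tang, 47 fell and 7 rose, 30.0% of members against 39.6% of all genes (20.5% higher, 19.1% lower). The share of members that fell there, 26.1%, was above the background of 19.1%. The share that fell was near the background with Sagunja-tang and Palmul-tang, and below it with Samul-tang (16 of 180, against 12.5% of all genes).

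The shift was small on average. The median log2 fold change of the members was -0.04, -0.03, -0.07 and -0.10 for the 4 extracts in order, and 109, 105, 118 and 128 of the 180 members lay below 0. Zinc finger genes of the same naming on other chromosomes were similar: of 226 tested, 68 fell and 19 rose with Sagunja-tang, and 75 fell and 14 rose with Sibjeondaebo-tang, with medians of -0.09 in both. Other protein-coding genes of chromosome 19 were not: of 778 tested, 147 fell and 199 rose with Sagunja-tang (median 0.04), and 144 fell and 210 rose with Sibjeondaebo-tang (median 0.01). The count for the high dose of Sagunja-tang, 43 in either direction, was 13 without its replicate 2. The count for the high dose of Samul-tang, 22, was 5 without its replicate 2 and 13 without its replicate 3.

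**Figure D2:**
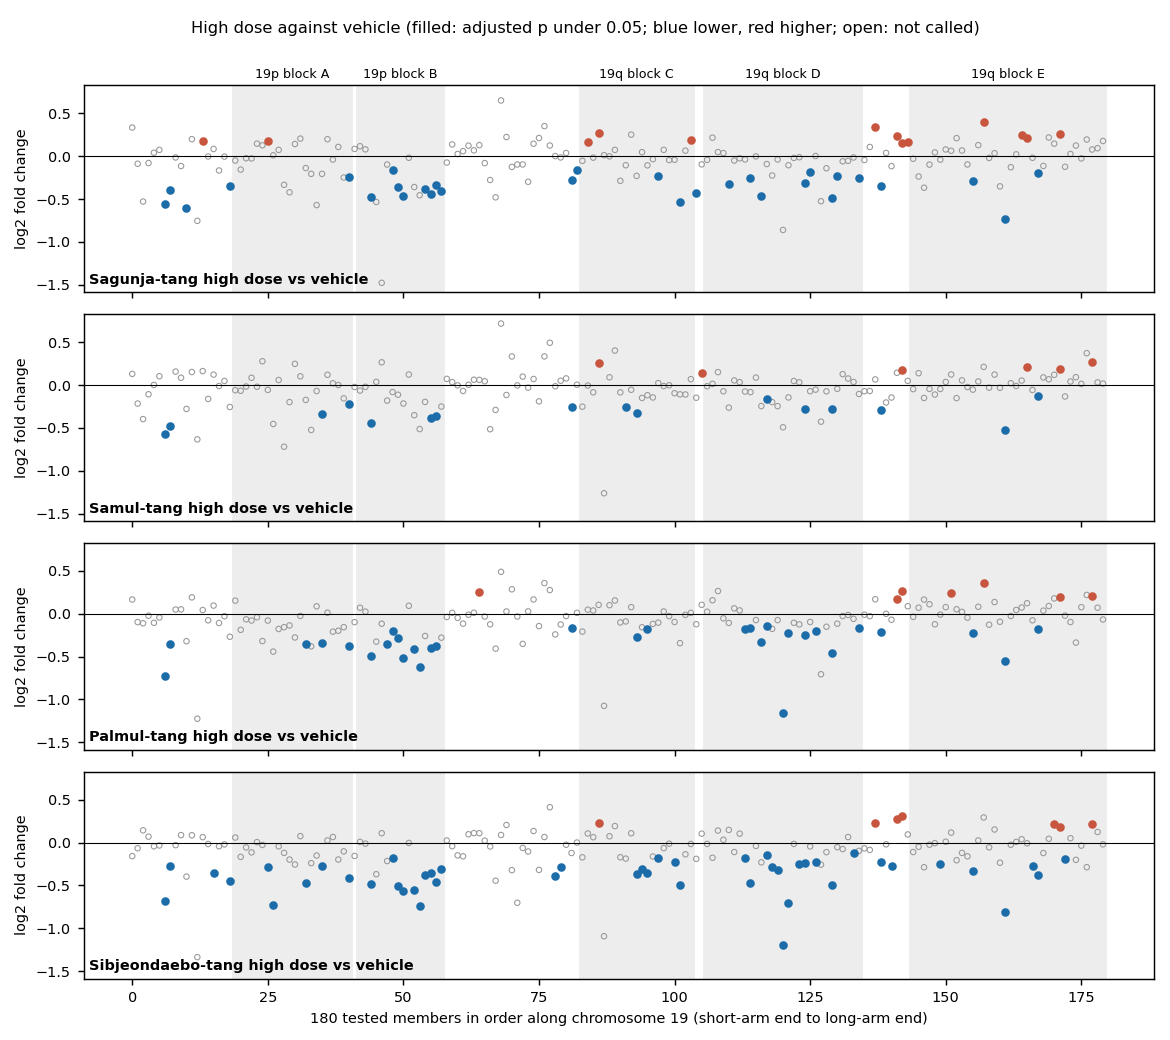
Log2 fold change of the 180 tested members against vehicle at the high dose of each extract (vertical axis), with members in their order along chromosome 19 (horizontal axis); filled points passed an adjusted p of 0.05, blue lower and red higher, and shading marks the 5 largest blocks. Blue points gather in the second shaded block (ZNF101 to ZNF254) and in the fourth (ZNF175 to ZNF331), where no member rose.

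Members less than 500 kilobases apart were joined into 20 blocks, and the blocks differed in how often their members fell. The block next to the centromere, from ZNF101 to ZNF254 (hg38 chromosome 19, 19668796 to 24129961), holds 37 members, of which 16 were tested and 9 had no count. This block is known for its expansion in primates. Over the 4 high doses, 30 of its 64 tests were lower calls (46.9%) and 0 were higher, against 16.1% lower and 17.9% higher over all genes tested and 17.2% and 4.58% over all members. By extract, 8, 3, 9 and 10 of the 16 members fell, with medians of -0.37, -0.19, -0.31 and -0.36. Summed over its tested members, vehicle libraries held 89.7 to 96.7 CPM and the high dose of Sibjeondaebo-tang 72.3 to 77.6 CPM, without overlap. Every other extract library, those of the low doses included, also lay below vehicle, at 85.4 CPM or less. Left-out libraries moved the counts more than the medians. With Sagunja-tang the 8 lower calls were 2 without its replicate 2 (median -0.29) and 5 without vehicle replicate 2 or 3, and with Samul-tang the 3 were 0 without its replicate 2 (median -0.23). With Sibjeondaebo-tang 8 or 9 remained in number whichever library was left out, and with Palmul-tang 6 to 10.

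The block from ZNF175 to ZNF331 (51571298 to 53580269), with 39 members and 29 tested, had the next largest share of lower calls among blocks with more than 2 tested members. Of its 116 tests at the high doses, 33 were lower calls (28.4%) and 0 were higher, with 8, 3, 10 and 12 members lower in the same order of extracts. Its medians were -0.06, -0.07, -0.12 and -0.12. The median for Sagunja-tang was -0.15 without its replicate 3 and -0.024 with GC and length trends removed, and that for Samul-tang was -0.040 without vehicle replicate 1. Its summed level was 423 to 448 CPM in vehicle and 388 to 399 CPM at the high dose of Sibjeondaebo-tang. These ranges did not overlap either, and again every extract library at every dose lay below vehicle, at 421 CPM or less. The 8 lower calls with Sagunja-tang were 3 without its replicate 2 and 5 without vehicle replicate 1, and the 12 with Sibjeondaebo-tang were 7 without its replicate 3. Fitting only the groups compared gave 18 lower calls of 116.

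The other blocks varied. The pairs ZNF557 with ZNF358 and ZNF574 with ZNF526 had 4 lower calls in 8 tests each and 0 higher. The block from ZNF414 to ZNF846 had 16.7% lower and 2.08% higher of 48 tests. In the most distal block, from ZNF264 to ZNF446 (57191500 to 58481230), 14 of 144 tests were higher and 14 lower, and a median of 72.7% of its members' values were fractional. The block from ZNF653 to ZNF791 (11483427 to 12640098) had 11 lower and 1 higher of 88, and the block from ZNF575 to ZNF180 (43525497 to 44500524) 12 lower and 5 higher of 84. The block from ZNF628 to ZNF835 leaned the other way, with 10 higher and 5 lower of 36. No member fell in the 56 tests of the block from ZNF565 to ZNF573, where 1 rose, and its tested members had a median of only 1.00 CPM.

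Base composition differed between these blocks. The transcripts of the centromeric block had a median GC content of 37.3%, against 42.8% for all tested members, 48.6% for all genes tested and 64.9% for the block from ZNF628 to ZNF835. Across the 180 members, Spearman's rho between log2 fold change and GC content was 0.15, 0.13, 0.30 and 0.29 at the 4 high doses. These are descriptions across genes that share the same libraries. With each library's trends over GC content and length removed, lower calls numbered 26 of 64 in the centromeric block, with 0 higher and medians of -0.35, -0.20, -0.28 and -0.30. In the block from ZNF175 to ZNF331 they numbered 20 of 116, with 2 higher.

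**Figure D3:**
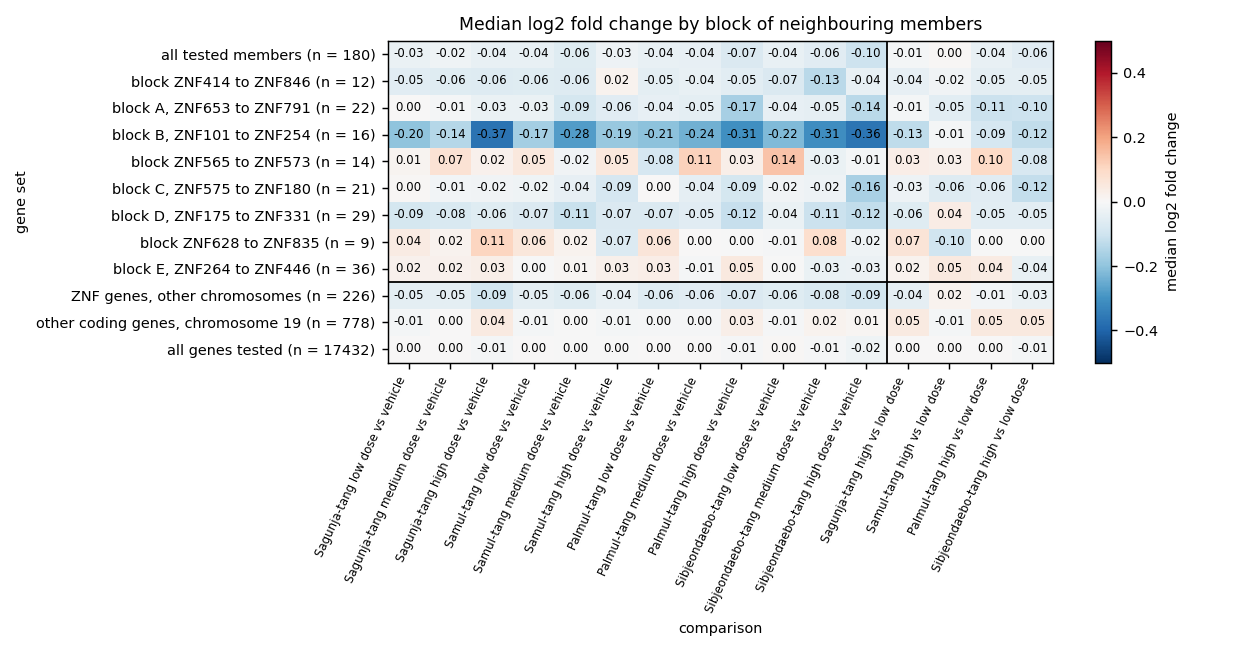
Median log2 fold change (colour and printed value) of the tested members of each of 8 blocks, of all members, of zinc finger genes elsewhere, of other coding genes of chromosome 19 and of all genes tested (rows) in 16 comparisons (columns). The centromeric block is lowest at the high doses against vehicle, at -0.37, -0.19, -0.31 and -0.36.

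Members of the centromeric block were scarce, and those named here all carry KRAB boxes. ZNF91 (ENSG00000167232, 23304991 to 23395560, minus strand), a KRAB protein with 31 fingers known to repress SVA retrotransposons, had 6.08, 7.07 and 6.78 CPM in vehicle. It had 4.74 and 5.03 CPM at the high dose of Sagunja-tang, 4.80 and 5.37 with Samul-tang, 5.02, 5.23 and 4.94 with Palmul-tang, and 5.33, 5.28 and 4.93 with Sibjeondaebo-tang. Every high-dose library lay below every vehicle library. The log2 fold changes were -0.44 ± 0.120 (SE; adjusted p = 0.00477), -0.38 (adjusted p = 0.0144), -0.39 (adjusted p = 0.00441) and -0.36 ± 0.104 (SE; adjusted p = 0.00675). At the medium doses ZNF91 was lower by the test with all 4 extracts (-0.37, -0.36, -0.37 and -0.49), and at the low doses it was not called (-0.26 to -0.22). The call at the high dose of Samul-tang was lost (-0.33, adjusted p = 0.0625) when vehicle replicate 2 was left out, and likewise (-0.31, adjusted p = 0.161) when replicate 2 of the treated group was.

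ZNF708 (ENSG00000182141, 21291160 to 21329425, minus strand), with a KRAB box and 14 fingers, had 6.30, 7.01 and 5.91 CPM in vehicle. It had 4.41, 4.30 and 4.78 CPM at the high dose of Palmul-tang and 4.49, 4.38 and 4.14 CPM at that of Sibjeondaebo-tang. These groups did not overlap vehicle, and the log2 fold changes were -0.51 ± 0.123 (SE; adjusted p = 0.00212) and -0.56 ± 0.125 (SE; adjusted p = 0.000654). With Sagunja-tang it fell by 0.47 (adjusted p = 0.0110), and with Samul-tang it was not called (-0.22, adjusted p = 0.253). ZNF506 (19785839 to 19821751, minus strand) had 6.75, 7.10 and 7.45 CPM in vehicle and fell by 0.48 ± 0.122, 0.45, 0.50 and 0.49 ± 0.106 (SE) at the 4 high doses. Its calls for Sagunja-tang and Samul-tang were lost without replicate 2 of the treated group (-0.37, adjusted p = 0.0862, and -0.42, adjusted p = 0.0634). ZNF493 (21397119 to 21427573, plus strand) fell by 0.41 with Palmul-tang (adjusted p = 0.0160) and by 0.55 with Sibjeondaebo-tang (adjusted p = 0.00139).

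ZNF160 was called lower in all 12 comparisons with vehicle, which share their controls. This KRAB gene with 20 fingers (ENSG00000170949, 53066606 to 53103436, minus strand) had whole-number counts throughout and no overlapping exons. Vehicle libraries had 33.4, 33.4 and 31.5 CPM. High-dose libraries had 21.8 and 25.0 CPM with Sagunja-tang, 27.2 and 26.6 with Samul-tang, 22.0, 25.9 and 24.1 with Palmul-tang, and 24.3, 22.3 and 23.4 with Sibjeondaebo-tang. All 30 extract libraries, from 21.8 to 27.7 CPM, lay below the lowest vehicle library. At the high doses it fell by 0.48 ± 0.0660 (SE; adjusted p = 4.98e-06), 0.28 ± 0.0637 (SE; adjusted p = 0.00142), 0.45 ± 0.0574 (SE; adjusted p = 1.2e-06) and 0.49 ± 0.0577 (SE; adjusted p = 2.28e-07) on the log2 scale. The falls were 0.29, 0.39, 0.37 and 0.41 at the medium doses and 0.29, 0.32, 0.37 and 0.34 at the low doses. High against low dose was called within 1 extract, Sibjeondaebo-tang, at -0.15 ± 0.0575 (SE; adjusted p = 0.0473), and that call was lost without replicate 2 or 3 of the high dose or without any 1 of the 3 low-dose libraries. The adjusted p for the same step was 0.0940 with Sagunja-tang, 0.838 with Samul-tang and 0.425 with Palmul-tang.

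ZNF28 (ENSG00000198538, 52797409 to 52857600, minus strand) had 44.6, 44.0 and 43.1 CPM in vehicle and 33.3 to 39.8 CPM in the 30 extract libraries, all below vehicle. It fell by 0.32 ± 0.0535 (SE; adjusted p = 5.09e-05) with Sagunja-tang and by 0.24 ± 0.0469 (SE; adjusted p = 0.000155) with Sibjeondaebo-tang at the high dose. It shares exons with ZNF468, and 97.0% of its values were fractional, so its reads may be divided between the genes. ZNF468, at a mean of 50.5 CPM, had -0.18 with Sagunja-tang (adjusted p = 0.0157) and between -0.10 and -0.04 with the other extracts, which were not called. The call for ZNF468 was lost without vehicle replicate 1 or 2, without Sagunja-tang replicate 2 (-0.086, adjusted p = 0.409) and with GC and length trends removed (-0.090, adjusted p = 0.168).

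ZNF791 (ENSG00000173875, 12610918 to 12633840, plus strand), a KRAB gene with 17 fingers, had 28.3, 28.9 and 29.3 CPM in vehicle and 21.1 to 27.4 CPM in all extract libraries, without overlap. It fell by 0.24, 0.22, 0.38 and 0.42 ± 0.0518 (SE; adjusted p = 5.16e-07) at the high doses and missed the threshold only at the medium dose of Sagunja-tang (-0.14, adjusted p = 0.0834). The Sagunja-tang call at the high dose was lost with GC and length trends removed (-0.12, adjusted p = 0.121) and with only the groups compared, and the Samul-tang call without its replicate 3 (-0.19, adjusted p = 0.0686). ZNF574, with 18 fingers and no KRAB box (ENSG00000105732, 42068477 to 42081549, plus strand), had 41.9, 42.6 and 43.7 CPM in vehicle and 32.7 to 40.9 CPM in extract libraries. Here the low doses stood farther from vehicle (-0.33, -0.29, -0.26 and -0.26) than the high dose of Sibjeondaebo-tang, which was not called (-0.12, adjusted p = 0.0614). Sibjeondaebo-tang high against low was higher by 0.14 (adjusted p = 0.0394), a call lost without replicate 1 or 3 of either dose and without the filter on low counts.

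Vehicle replicate 3 carried much of the difference for some members. ZNF358 (ENSG00000198816, 7515292 to 7521026, plus strand) had 3.06, 2.67 and 4.17 CPM in vehicle and 1.97, 2.04 and 2.12 CPM at the high dose of Sibjeondaebo-tang, a fall of 0.69 (adjusted p = 0.000953). Without vehicle replicate 3, 7 of its 9 calls that were refitted were lost, among them those at the high doses of Sagunja-tang (-0.35, adjusted p = 0.140) and Samul-tang (-0.38, adjusted p = 0.129). Those calls were also lost without either treated library. ZNF544 (ENSG00000198131, 58228594 to 58277495, plus strand), called higher in 11 of 12 comparisons, had 29.3, 29.2 and 25.4 CPM in vehicle and 29.5 to 34.9 CPM in all 30 extract libraries. It rose by 0.26 with Sagunja-tang (adjusted p = 0.000530) and 0.18 ± 0.0503 (SE; adjusted p = 0.00493) with Sibjeondaebo-tang at the high dose. Without vehicle replicate 3, 5 of its 7 refitted calls were lost, and the values for Samul-tang and Sibjeondaebo-tang at the high dose were 0.12 each (adjusted p = 0.103 and 0.0678). Of its values, 97.0% were fractional, and its exons overlap AC020915.5.

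**Figure D4:**
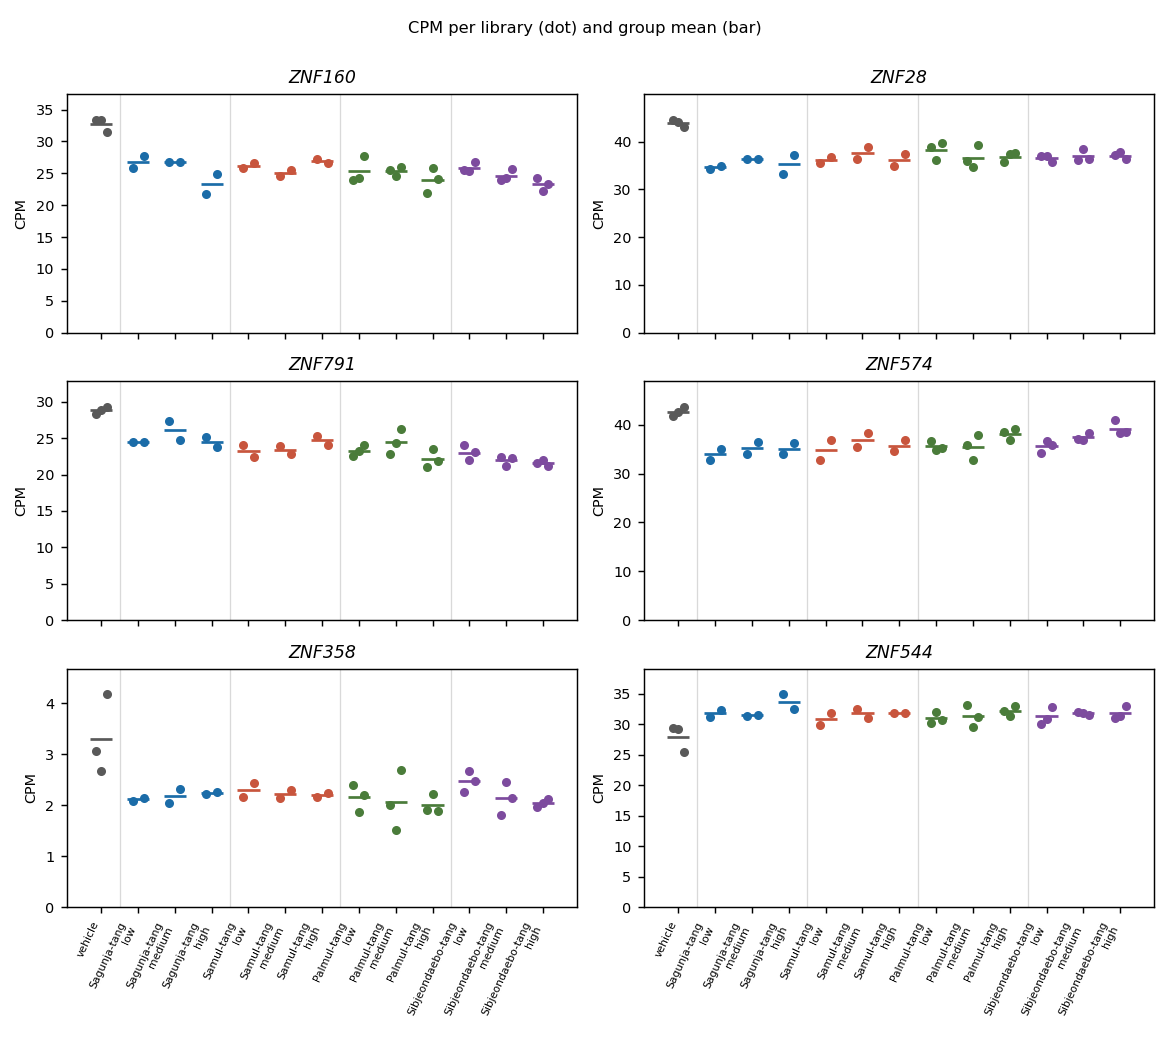
CPM of ZNF160, ZNF28, ZNF791, ZNF574, ZNF358 and ZNF544 (vertical axes, starting at 0) in each library, by group along the horizontal axis. ZNF160 has 31.5 to 33.4 CPM in vehicle and 21.8 to 27.7 CPM in every extract library, while in ZNF544 vehicle replicate 3, at 25.4 CPM, lies apart from the other vehicle libraries at 29.3 and 29.2.

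Rises were fewer. ZNF552, a KRAB gene with 6 fingers, was called higher in 9 of 12 comparisons, with 30.9, 30.0 and 32.6 CPM in vehicle and 36.7 and 37.3 CPM at the high dose of Sagunja-tang (0.25, adjusted p = 0.00117). All of its values were fractional, and ZNF586 overlaps it on the other strand. Its 7 calls that were refitted without vehicle replicate 3 were all kept. Without vehicle replicate 2, 1 of the 7 was lost, that at the medium dose of Palmul-tang (0.16, adjusted p = 0.0587). This call was also lost without replicate 2 of the treated group and with only the groups compared. Leaving out replicate 2 of the treated group, which left 1 library, gave 0.20 at the medium dose of Samul-tang and 0.21 at the low dose of Sagunja-tang. Neither value is counted as a call kept. ZNF787 (ENSG00000142409, 56087366 to 56121280, minus strand), with 7 fingers, no KRAB box and a GC content of 70.3%, had 56.7, 59.9 and 60.0 CPM in vehicle. It had 66.5, 72.0 and 74.1 CPM at the high dose of Palmul-tang and 71.7, 72.1 and 75.7 CPM at that of Sibjeondaebo-tang, all above vehicle. These were rises of 0.27 ± 0.0464 (SE; adjusted p = 8.12e-05) and 0.31 ± 0.0465 (SE; adjusted p = 6.51e-06). With Sagunja-tang (69.5 and 62.1 CPM) the rise of 0.16 ± 0.0523 (SE; adjusted p = 0.0180) turned to -0.056 once GC and length trends were removed, and it was lost without that group's replicate 2 (0.08, adjusted p = 0.436) or vehicle replicate 1 (0.13, adjusted p = 0.0718). With only the groups compared, the calls of ZNF544, ZNF552 and ZNF787 at the high dose of Sagunja-tang were lost. With Samul-tang the rise of 0.17 (adjusted p = 0.0125) became 0.07 under that removal, and it was lost without vehicle replicate 1 or either treated library.

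Further rises rested on less. ZNF530 rose by 0.40 with Sagunja-tang and 0.36 with Palmul-tang, ZNF324B by 0.27 with Samul-tang and 0.21 with Palmul-tang, and ZNF283 by 0.26 with Samul-tang and 0.23 with Sibjeondaebo-tang at the high doses. Each of these 6 calls was lost without vehicle replicate 3. ZNF524 rose by 0.34 with Sagunja-tang (adjusted p = 0.00133) and 0.23 with Sibjeondaebo-tang (adjusted p = 0.0105). Both calls were lost with GC and length trends removed, and both with only the groups compared. The Sibjeondaebo-tang call also failed on dropping replicate 3 of vehicle (0.13) or of the treated group (0.19). Dropping replicate 2 of the Sagunja-tang group, which left a single library, gave 0.21. Over all doses, 7 calls of ZNF524 were refitted with vehicle replicate 3 absent, and 6 of them were lost. ZNF581, by contrast, rose by 0.27 with Sibjeondaebo-tang (adjusted p = 0.000606) and kept that call under every alternative tried.

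ZNF587 had 145, 155 and 150 CPM in vehicle and 113, 118 and 115 CPM at the high dose of Sibjeondaebo-tang, without overlap, a fall of 0.37 ± 0.0419 (SE; adjusted p = 1.13e-07). With Sagunja-tang, Samul-tang and Palmul-tang it fell by 0.19, 0.13 and 0.18, and the call for Samul-tang (adjusted p = 0.0427) was lost without any 1 of 4 libraries. The call for Sagunja-tang was lost without its replicate 2 (-0.066, adjusted p = 0.301), with GC and length trends removed (-0.052, adjusted p = 0.282) and with only the groups compared. ZNF146, the most abundant member, had 210, 225 and 220 CPM in vehicle and was not called at any high dose (-0.08, 0.04, -0.03 and 0.02). Of the other most abundant members, ZNF507, ZNF776 and ZNF562 were called neither at the high doses against vehicle nor between high and low doses. With GC and length trends removed, however, ZNF562 was called higher at the high dose of Sagunja-tang (0.22, adjusted p = 0.0129). ZNF146 was lower at all 4 low doses, by 0.09 to 0.13, and it rose from low to high dose with Samul-tang by 0.18 (adjusted p = 0.00457), a call lost without low replicate 3 (0.13, adjusted p = 0.157) or with no filter on low counts. The same step with Sibjeondaebo-tang gave 0.12 (adjusted p = 0.00766), lost without high replicate 1 (0.098, adjusted p = 0.0511) or with no filter.

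Medium and low doses gave fewer calls, again mostly lower. At the medium dose, Sagunja-tang had 10 lower and 3 higher calls, 7.22% of members against 16.4% of all genes (8.4% higher, 8.05% lower). Samul-tang had 16 and 4, 11.1% against 20.1% (10.9% higher, 9.27% lower), and Palmul-tang 19 and 2, 11.7% against 20% (10.3% higher, 9.63% lower). Sibjeondaebo-tang had 29 and 5, 18.9% against 26% (14% higher, 12% lower). At the low dose, Sagunja-tang had 14 and 3, 9.44% against 21.9% (11.1% higher, 10.7% lower), and Samul-tang 15 and 6, 11.7% against 17.6% (8.89% higher, 8.71% lower). Palmul-tang had 17 and 4, 11.7% against 20.3% (10.6% higher, 9.74% lower), and Sibjeondaebo-tang 18 and 5, 12.8% against 22% (11.1% higher, 10.9% lower). Each share of members called in either direction was below its background. Single libraries moved these counts: without vehicle replicate 3 they were 7 at the medium and 10 at the low dose of Sagunja-tang and 11 and 13 at those of Palmul-tang. Leaving out replicate 2 or 3 of a treated group gave 3 and 6 at the medium and 2 and 8 at the low dose of Sagunja-tang, and 6 and 6 at the low dose of Samul-tang. The count fell to 3 without replicate 2 at the medium dose of Samul-tang, to 13 without vehicle replicate 2 at its low dose, to 13 and 10 without replicates 1 and 2 at the medium dose of Palmul-tang, and to 9 without replicate 2 at its low dose. With Sibjeondaebo-tang it was 22 at the medium and 10 at the low dose without replicate 3 of that dose.

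Over all 12 comparisons with vehicle, which share their controls, 87 of the 180 members were called at least once (48.3%) and 93 never, against 62.1% of all genes called at least once. Of the 87, 65 were ever lower (36.1% of members, against 32.8% of all genes), 23 were ever higher (12.8% against 31.2%) and 1 was both. In the centromeric block 11 of 16 members were ever lower, and 59 of its 192 tests were lower calls with 0 higher. In the block from ZNF175 to ZNF331, 17 members were ever lower, and 69 of 348 tests were lower calls with 1 higher.

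Comparing high with low dose within an extract sets the vehicle libraries aside. With Sibjeondaebo-tang, 28 members fell and 8 rose, 20.0% of members against 29.9% of all genes (15.5% higher, 14.3% lower). The 15.6% that fell lay near the background. With Palmul-tang 7 fell and 4 rose (14.4% of all genes called, 7.66% higher and 6.75% lower), with Samul-tang 1 fell and 3 rose (7.53% of all genes, 4.1% higher and 3.43% lower), and with Sagunja-tang 1 fell and 0 rose (7.19% of all genes, 3.33% higher and 3.86% lower). The single call for Sagunja-tang was ZNF888, at under 1 CPM in every library and -1.15, and it was lost without replicate 2 of the high or of the low dose; without replicate 3 of the high dose 13 members were called. The count for Sibjeondaebo-tang was 19 without replicate 1 of the high dose and 23 without replicate 1 of the low dose, and in the centromeric block only 3 of its 16 members fell. The 11 calls for Palmul-tang were 4 and 7 without replicates 1 and 3 of the high dose and 6 and 3 without those of the low dose. The 4 calls for Samul-tang were 2 without replicate 2 of the high dose and 1 without either low-dose library.

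ZNF83 showed the steepest dose pattern with Sibjeondaebo-tang. This gene (ENSG00000167766, 52594060 to 52690496, minus strand) encodes 14 fingers without a KRAB box. It had 9.23, 8.36 and 9.05 CPM in vehicle. With Sibjeondaebo-tang it had 8.05, 8.15 and 7.86 CPM at the low, 7.73, 7.24 and 6.13 at the medium and 5.79, 5.20 and 5.34 at the high dose. The 3 doses did not overlap. High against low was -0.56 ± 0.0782 (SE; adjusted p = 4.08e-06), and high against vehicle was -0.70 ± 0.0798 (SE; adjusted p = 1.44e-07). With Palmul-tang the high dose had 6.89, 7.91 and 8.03 CPM, and high against low was -0.07 (adjusted p = 0.596).

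ZNF121 (ENSG00000197961, 9560353 to 9584533, minus strand), with 9 fingers and no KRAB box, was among the abundant members. It had 78.1, 81.0 and 76.9 CPM in vehicle. With Sibjeondaebo-tang it had 78.3, 72.9 and 71.2 CPM at the low, 74.8, 72.3 and 66.2 at the medium and 62.8, 61.1 and 60.2 at the high dose, which lay below all the others. High against low was -0.27 ± 0.0490 (SE; adjusted p = 0.000109). With Palmul-tang it had 76.4, 76.6 and 73.3 CPM at the low and 83.1, 86.6 and 82.6 at the high dose, a rise of 0.16 ± 0.0485 (SE; adjusted p = 0.0283) that was lost without any 1 of 5 libraries.

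The extracts were also set against each other. At the high dose, Sibjeondaebo-tang was lower than Palmul-tang for 6 members and higher for 0, 3.33% of members against 3.87% of all genes (0.35% higher, 3.52% lower). ZNF83 differed by -0.48 ± 0.0785 (SE; adjusted p = 0.000181), ZNF121 by -0.45 ± 0.0488 (SE; adjusted p = 4.35e-07) and ZNF700 by -0.21 (adjusted p = 0.0297). The change from low to high dose was compared between these extracts as well, a comparison added after the data were seen. It differed for 2 members, against 1.45% of all genes: ZNF83 by -0.48 ± 0.109 (SE; adjusted p = 0.0144) and ZNF121 by -0.43 ± 0.0690 (SE; adjusted p = 0.000576). The count was 1 without Palmul-tang low replicate 2, Sibjeondaebo-tang high replicate 2 or Palmul-tang high replicate 3. Between Samul-tang and Sagunja-tang at the high dose, 4 members were higher and 1 lower with Samul-tang, against 5.47% of all genes (3.55% higher, 1.92% lower). That count was 0 without Sagunja-tang replicate 2 or Samul-tang replicate 3, 1 without Samul-tang replicate 2 and 22 without Sagunja-tang replicate 3. Their change from low to high dose differed for 0 members, against 0.138% of all genes, and for 14 without Sagunja-tang high replicate 3.

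ZNF700 (11925068 to 11950773, plus strand), a KRAB gene with 18 fingers, had 14.5, 13.4 and 14.0 CPM at the low dose of Sibjeondaebo-tang and 10.3, 11.1 and 10.9 CPM at the high dose. The groups did not overlap, and the difference was -0.38 ± 0.0556 (SE; adjusted p = 8.64e-06). ZNF787 rose between the same doses, from 56.8, 61.3 and 61.6 CPM to the high-dose values above, by 0.29 ± 0.0458 (SE; adjusted p = 2.42e-05), and by 0.21 ± 0.0459 (SE; adjusted p = 0.00254) with Palmul-tang. ZNF587 fell by 0.29 (adjusted p = 5.11e-06) with Sibjeondaebo-tang. ZNF69 (11887784 to 11914329, plus strand) fell with Palmul-tang, from 3.57, 3.61 and 4.14 CPM to 2.06, 2.46 and 2.63 CPM, by 0.66 ± 0.133 (SE; adjusted p = 0.00101).

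ZNF473 rose from low to high dose with 3 extracts. The protein (ZFP100) takes part in the processing of histone pre-mRNA. With Palmul-tang it went from 33.8, 32.9 and 36.0 to 39.6, 40.9 and 39.5 CPM, and with Sibjeondaebo-tang from 35.3, 34.3 and 36.6 to 40.3, 39.2 and 40.4 CPM, without overlap. These rises were 0.22 ± 0.0426 (SE; adjusted p = 0.000494) and 0.18 ± 0.0424 (SE; adjusted p = 0.00234). With Samul-tang it went from 34.3 and 35.6 to 39.6 and 42.2 CPM, a rise of 0.23 ± 0.0518 (SE; adjusted p = 0.00561) that was lost without Samul-tang low replicate 2 (0.20, adjusted p = 0.0979) or high replicate 3 (0.18, adjusted p = 0.115). With Sagunja-tang it had 34.4 and 35.7 CPM at the low and 33.8 and 35.8 CPM at the high dose (-0.01, adjusted p = 0.937). Vehicle had 36.7, 37.1 and 37.8 CPM, between the low-dose and high-dose levels of the extracts that moved. VRK3 overlaps the gene on the other strand.

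The remaining members with the largest changes gave mostly calls that rested on single libraries. At the high doses, ZNF699 fell by 0.60 with Sagunja-tang (lost without vehicle replicate 2 or its own replicate 2) and ZNF414 by 0.47 with Samul-tang (lost without its replicate 2). ZNF749 rose by 0.24 with Palmul-tang and ZNF587B by 0.21 with Samul-tang, and both calls were lost without vehicle replicate 3. ZNF296 was lower at the low doses of Samul-tang (-0.55, adjusted p = 0.00269) and Sibjeondaebo-tang (-0.44, adjusted p = 0.00382), and these calls were kept under every alternative tried. Its other named calls were less firm. The fall at the medium dose of Samul-tang was lost without vehicle replicate 2 or 3, with only the groups compared and with no filter. The rise from low to high dose with Samul-tang was lost with RLE scaling, DESeq2, only the groups compared and no filter. ZNF490 was called lower at the medium dose of Sagunja-tang and at the low dose of Samul-tang (-0.60 for the larger). ZNF460 was lower at the low dose of Sagunja-tang (-0.59) and ZNF559 higher at the low dose of Samul-tang (0.45). Each of these calls of ZNF490, ZNF460 and ZNF559 was lost without vehicle replicate 3. From low to high dose, ZNF576 rose by 0.19 with Sibjeondaebo-tang (adjusted p = 0.00426; lost without high replicate 3) and ZNF846 fell by 0.37. With Palmul-tang ZNF799 fell by 0.33, ZNF320 fell by 0.17 and ZNF526 rose by 0.15. The calls of ZNF846, ZNF799, ZNF320 and ZNF526 were each lost when any single one of at least 3 libraries was left out. Between Samul-tang and Sagunja-tang at the high dose, ZNF805 was higher by 0.37 (adjusted p = 0.0499) and ZNF234 by 0.25 (adjusted p = 0.0467), and both were lost with DESeq2.

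**Figure D5:**
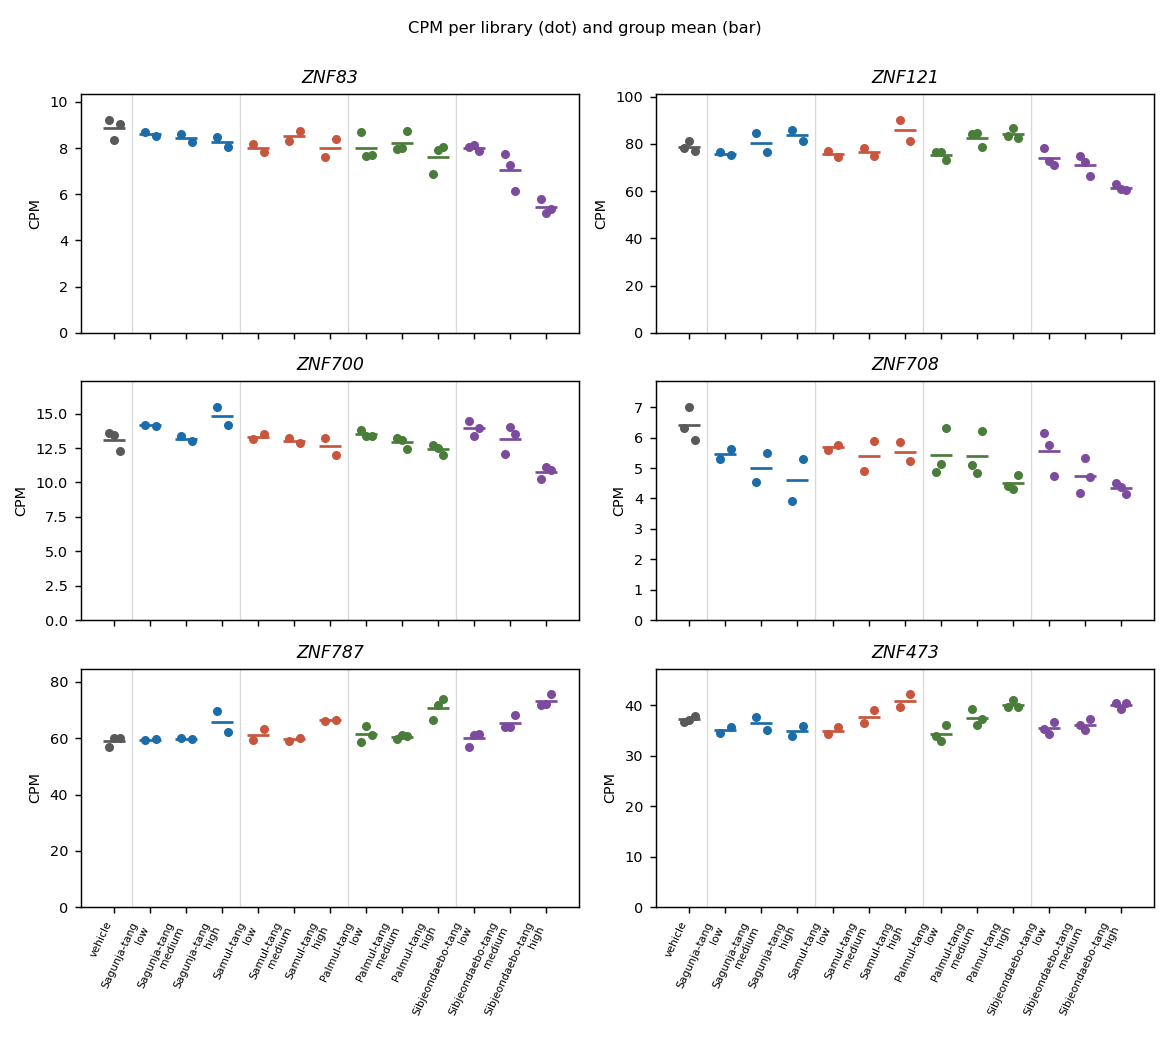
CPM of ZNF83, ZNF121, ZNF700, ZNF708, ZNF787 and ZNF473 (vertical axes, starting at 0) in each library, by group along the horizontal axis. In ZNF83 the libraries of Sibjeondaebo-tang step down from 7.86 to 8.15 CPM at the low dose to 5.20 to 5.79 CPM at the high dose, a step that Palmul-tang does not show.

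ZNF274 recruits SETDB1 to the ends of zinc finger genes of this chromosome, and so acts on the family itself. The gene (ENSG00000171606, 58183029 to 58213562, plus strand) had 8.66, 8.85 and 8.08 CPM in vehicle and 9.98, 10.3 and 9.41 CPM at the high dose of Sibjeondaebo-tang. The groups did not overlap, and the difference was 0.22 ± 0.0755 (SE; adjusted p = 0.0245). That call was lost without vehicle replicate 3 (0.18, adjusted p = 0.107) and without replicate 1 or 2 of the treated group, and in the other 11 comparisons with vehicle the gene was not called.

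The partners of KRAB proteins were read from a list of 36 corepressor and heterochromatin genes, all of which were tested. At the high doses, 8 rose and 10 fell with Sagunja-tang, 5 and 5 with Samul-tang, 10 and 7 with Palmul-tang, and 14 and 8 with Sibjeondaebo-tang, with medians of -0.04, 0.02, 0.00 and -0.01. Over all genes, 18.7% rose and 18% fell with Sagunja-tang, 15% and 12.5% with Samul-tang, 17.3% and 14.8% with Palmul-tang, and 20.5% and 19.1% with Sibjeondaebo-tang. TRIM28, the corepressor bound by KRAB boxes, had 578, 582 and 583 CPM in vehicle, 656 and 620 with Sagunja-tang, 590 and 591 with Samul-tang, 659, 642 and 639 with Palmul-tang, and 676, 657 and 629 with Sibjeondaebo-tang. It was thus above every vehicle library at each high dose, by 0.14 ± 0.0350 (SE; adjusted p = 0.00318), 0.02 (adjusted p = 0.678), 0.15 (adjusted p = 0.000433) and 0.17 (adjusted p = 9.37e-05). SETDB1 had 44.3, 44.0 and 46.5 CPM in vehicle and 40.0 and 41.9 CPM with Sagunja-tang, a fall of 0.13 (adjusted p = 0.0142). It fell by 0.10 with Palmul-tang (adjusted p = 0.0405) and was not called with Sibjeondaebo-tang (-0.09, adjusted p = 0.0537). CBX3, the HP1 gamma gene, rose by 0.39, 0.21, 0.23 and 0.35 at the 4 high doses. Its vehicle libraries spread from 289 to 341 CPM, and extract libraries of all doses from 335 to 452 CPM. SETDB2 fell by 0.39, 0.26, 0.22 and 0.26 at the high doses. KIAA1551 (RESF1), which works with SETDB1 in silencing retroviral elements, fell by 0.51, 0.40, 0.45 and 0.51. Between high and low dose, TRIM28 was higher by 0.18 with Sagunja-tang, 0.18 with Palmul-tang (adjusted p = 0.000148) and 0.19 with Sibjeondaebo-tang (adjusted p = 2.97e-05).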

How the data were processed

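Total RNA was sequenced as 100 bp pairs with a directional kit, per the labels' protocols. The authors used FastQC 0.11.9, Trim Galore 0.6.5, STAR 2.7.3a, RSEM 1.3.3 and hg38, per the submitters' processing notes. Values deposited by the authors are expected counts from RSEM, of which 9.45% were not whole, and all were rounded. Of 273 columns, 33 were used and 240 were not used. Library totals were 28558866 to 49068019 counts (31071786 to 35626398 in vehicle). Identifiers were matched to GENCODE 29 (57055 of 60675), and the release the authors counted with is not given in the sources used here.

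All genes passing filterByExpr (minimum count 10) were fitted over 33 libraries in 13 groups with edgeR 4.0.16 (R 4.3.3, TMM, quasi-likelihood F test, 20 residual degrees of freedom) and Benjamini-Hochberg adjustment over 17432 genes, with 0.05 as the threshold. CPM use TMM-scaled totals. The method was tested on simulated data. Alternatives were DESeq2 1.42.0, RLE scaling, no filter, only the groups compared, GC and length offsets, a replicate block and leave-one-out. Members and gene lists were chosen with earlier results of these data known.

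Named members are the 8 most abundant, those with the largest changes in each comparison (up to 4 rises and 4 falls for the high doses, up to 2 and 2 elsewhere) among called members whose mean log2 CPM reached 1 and with groups that do not overlap, the 6 called in most vehicle comparisons, ZNF274, and TRIM28, SETDB1 and the leading genes of the corepressor list. ZNF888 was named after its value was seen. A KRAB box was called where 11 of 15 scored positions matched.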

Additional observations from a re-analysis of the deposited data

Results flagged for a closer look

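The change from low to high dose differed between Sibjeondaebo-tang and Palmul-tang for 2 members by the test of that difference in edgeR. ZNF121 differed by -0.43 (adjusted p = 0.000576): it fell with Sibjeondaebo-tang in 3 of 3 libraries below all low-dose libraries and was higher with Palmul-tang in 3 of 3. ZNF83 differed by -0.48 (adjusted p = 0.0144): it fell with Sibjeondaebo-tang and had -0.07 with Palmul-tang.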

How the results depend on the processing

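Fitting only the groups compared lowered the number of members called to 7 and 11 at the high doses of Sagunja-tang and Samul-tang, 5, 9 and 7 at the medium doses of Sagunja-tang, Samul-tang and Palmul-tang, and 9, 9, 11 and 12 at the low doses of the 4 extracts in order. For Sagunja-tang high against low (1 called), GC and length removal gave 2, and RLE scaling, only the groups compared, DESeq2 and no filter each gave 0. For Samul-tang high against low (4 called), DESeq2 gave 2 and no filter 1. For Samul-tang against Sagunja-tang (5 called), GC and length removal gave 0, RLE scaling 3, only the groups compared 0 and no filter 2. With the replicate block these 3 counts were 3, 7 and 8, and with the block and GC and length removal 3, 7 and 3. Correlations of same-numbered deviations ran from -0.088 to 0.218 over the 18 pairs of groups compared, with every one over 0.1 in 1 pair. That pair was Samul-tang and Sagunja-tang at the high dose (0.126). Several pairs not compared had every value over 0.1. Among them, the low and medium doses of Palmul-tang had 0.156, 0.265 and 0.181. The medium and high doses of Sibjeondaebo-tang had 0.160, 0.184 and 0.107. Sagunja-tang high and Palmul-tang low had 0.290, the highest value of all pairs, and 0.177. The medium dose of Palmul-tang and the low dose of Sibjeondaebo-tang had -0.005, -0.087 and -0.180. Whether replicate numbers pair the samples was not settled. With GC and length removed, ZNF787 at the high dose of Sagunja-tang turned to -0.056 and, with the replicate block added, to -0.067, and ZNF562 there to 0.22 and 0.21. Without TMM scaling the mean summed CPM was 2424 in vehicle, 2362 at the high dose of Palmul-tang and 2243 at that of Sibjeondaebo-tang. It was above the vehicle mean at the low and medium doses of Sagunja-tang (2473 and 2464). The same held at the low and high doses of Samul-tang (2433 and 2448) and the low dose of Palmul-tang (2431). The other group means were below that of vehicle. The causes were not tested.

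Leaving out 1 library at a time gave, in the extracts' order, 13 to 46, 5 to 17, 27 to 33 and 41 to 49 members called at the high dose. At the medium dose it gave 3 to 14, 3 to 23, 10 to 21 and 22 to 33, and at the low dose 2 to 21, 6 to 24, 9 to 21 and 10 to 23. High against low gave 0 to 13, 1 to 3, 3 to 8 and 19 to 29. Samul-tang against Sagunja-tang gave 0 to 22 and Sibjeondaebo-tang against Palmul-tang 4 to 6, and the differences of dose changes gave 0 to 14 and 1 to 2 for these pairs. The 48 members under the filter, with at most 163 counts over all libraries, were not tested at this depth.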
